A study of Arabidopsis thaliana with 6 samples.

Results

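The small RNA clusters on both flanks of the 5 Arabidopsis centromeres were examined in rosette leaves of wild type and msh1 memory plants. A cluster is a stretch of the genome at which sequenced small RNAs pile up, and each deposited value is the number of small RNA reads counted in 1 cluster. The members were chosen by position alone, as the clusters whose first base lay in 10 windows of the TAIR10 genome, 1 on each side of each chromosome's core. In megabases the windows ran from 12.1 to 14.1 and from 16.1 to 18.1 on chromosome 1, from 1.6 to 2.6 and from 4.6 to 6.6 on chromosome 2, and from 10.6 to 12.6 and from 14.6 to 16.6 on chromosome 3. They ran from 2.3 to 3 and from 5 to 7 on chromosome 4, and from 8.7 to 10.7 and from 12.7 to 14.7 on chromosome 5. The 3901 flank clusters were 22.8% of the 17131 clusters, on 17.7 Mb that make up 14.9% of the nuclear genome. The 2047 clusters between the paired windows of a chromosome are called the core, and the other 11183 clusters the rest.

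Small RNA was sequenced from rosette leaves of single Col-0 plants sampled at bolting, with 1 library from each plant. The wild type group held 4 plants that came from negative RNAi transformation events, and the memory group held 2 first generation plants. The memory plants were full sibs that had lost an MSH1-RNAi transgene by segregation and kept an altered growth phenotype, so that neither group carried the transgene. Both memory plants came from 1 parent, so memory and that family cannot be told apart here. The comparison asks whether small RNA at the pericentromere flanks differs between plants with and without msh1 memory. No leaf marker could be read from these counts of small RNA, so the tissue label was not checked.

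Pericentromeres are the repeat-rich, largely silent stretches on either side of a plant centromere, where transposons lie among a declining number of genes. In plants, RNA polymerase IV, RDR2 and DCL3 make small interfering RNAs of 24 bases from such sequences, and these guide DNA methylation through AGO4 and the methyltransferase DRM2. MicroRNAs, cut by DCL1 from hairpin transcripts, are a separate class that represses messenger RNAs. The counts do not give the lengths of the reads, so the classes were told apart only by the annotated gene under a cluster.

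The sequences below show what kinds of source were counted in the flanks. The first set gives mature miRNAs of some flank miRNA genes that are described below or share a seed with them, with the seed, bases 2 to 8, in capitals. They were taken from RefSeq's annotation of TAIR10.1, in which 39 mature names with 37 seeds lay inside flank clusters.
ath-miR161.1 (MIR161, chr1:17825731-17825751, plus strand): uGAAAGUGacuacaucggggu
ath-miR161.2 (MIR161, chr1:17825722-17825742, plus strand): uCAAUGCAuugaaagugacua
ath-miR773a (MIR773a, chr1:13067313-13067333, plus strand): uUUGCUUCcagcuuuugucuc
ath-miR773b-3p (MIR773b, chr1:13050725-13050745, minus strand): uUUGAUUCcagcuuuugucuc
ath-miR164c-5p (MIR164c, chr5:9852684-9852704, plus strand): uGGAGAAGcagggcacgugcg
ath-miR396b-5p (MIR396b, chr5:13611808-13611828, plus strand): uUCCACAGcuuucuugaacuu
ath-miR5024-3p (MIR5024, chr1:16766285-16766305, minus strand): cCGUAUCUuggccuugucauu
ath-miR5664 (MIR5664, chr1:17386813-17386833, plus strand): aUAGUCAAuuuuaucggucug
ath-miR5020a (MIR5020a, chr4:6791401-6791421, minus strand): uGGAAGAAggugagacuugca
ath-miR5641 (MIR5641, chr5:9023268-9023288, plus strand): uGGAAGAAgaugauagaauua
The seed GGAAGAA was shared by miR5020a and miR5641, which lie on different chromosomes. The only other seed shared between names was UUUGAGU, in miR5645d and miR5645e.

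The second set shows 3 clusters as the plus strand of the TAIR10.1 sequence, with capitals for bases covered by a word of 24 bases that occurs more than once in the genome. Cluster_2623 had the highest fitted fold change, Cluster_8741 was the fall with the lowest p among clusters at 0 in both memory plants, and Cluster_9410 was the narrowest cluster among those with the highest level per kb of their window.
Cluster_2623 (chr1:18015550-18015822, whole): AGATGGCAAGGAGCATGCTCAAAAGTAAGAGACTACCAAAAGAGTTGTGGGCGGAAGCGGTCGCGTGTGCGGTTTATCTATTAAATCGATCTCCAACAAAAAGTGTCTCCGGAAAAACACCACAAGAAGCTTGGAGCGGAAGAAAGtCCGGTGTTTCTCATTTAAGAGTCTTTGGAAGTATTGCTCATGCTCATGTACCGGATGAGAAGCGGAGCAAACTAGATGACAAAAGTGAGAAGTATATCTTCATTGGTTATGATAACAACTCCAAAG
Cluster_8741 (chr3:11864132-11864431, first 300 bases): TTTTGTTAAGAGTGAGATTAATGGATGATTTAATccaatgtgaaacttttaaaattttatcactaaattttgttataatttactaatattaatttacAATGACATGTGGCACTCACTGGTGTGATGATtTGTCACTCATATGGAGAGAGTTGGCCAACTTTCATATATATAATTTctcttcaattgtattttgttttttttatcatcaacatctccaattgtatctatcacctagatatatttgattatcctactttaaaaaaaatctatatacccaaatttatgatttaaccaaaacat
Cluster_9410 (chr3:14956368-14956394, whole): ggagggacggatatagtcgaatgggtg
Of the 273 bases of Cluster_2623, 272 were in a repeated word, against 111 of the 300 bases shown for Cluster_8741 and none of the 27 bases of Cluster_9410.

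Flank clusters stood between those of the core and the rest in cover, width and repeat content. There were 220 clusters per Mb of flank, against 205 in the core and 122 in the rest. They covered 56.5% of the flank bases, against 66.8% and 16.4%. The median width was 1370 bases in the flanks, 2080 in the core and 996 in the rest. The median share of a cluster's words of 24 bases that occur more than once in the genome, taken here as its repeat content, was 17.7% in the flanks, 46.7% in the core and 3.04% in the rest. Base composition and inverted repeats lay outside that order. The median GC content of flank clusters, 33.3%, was below that of the core (38.5%) and the rest (35.8%), and clusters holding any inverted repeated word were more frequent there (8.79%) than in the core (5.62%) or the rest (3.86%).

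By annotation, no gene lay under 1435 flank clusters (36.8%), a pseudogene under 1383 (35.5%), a protein-coding gene under 982 (25.2%) and a noncoding RNA gene under 101 (2.59%). RefSeq files transposon genes among its pseudogenes. In the core 66.1% of clusters lay on pseudogenes, and in the rest 58.2% lay on protein-coding genes.

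The deposited cluster counts summed to between 7966799 and 18134284 per library, and the lowest total was that of memory replicate 2. Levels below are counts per 1000000 of the library total (CPM) after scaling by the trimmed mean of M-values (TMM). Of the flank clusters, 143 to 282 had no read in a given library, most in memory replicate 2, and the median flank count per library ran from 33 in that library to 95. A count of 0 allows up to 3 counts, a floor of 0.202 to 0.491 CPM, which covers counting error only. Wild type replicate 1 stood apart in 24 flank clusters that it held at 8-fold or more above every other library (0.615%, beside 1.55% of all clusters). These took 20.2% of its flank counts, and each other library held 1 to 8 such clusters.

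The typical flank cluster was far more densely read than the typical core cluster. The median level per kb of cluster was 3.92 ± 0.34 CPM in the flanks and 0.726 ± 0.061 CPM in the core (SD over 6 libraries), a 5.40-fold difference found in 6 of 6 libraries. On the log2 scale the difference was 2.43 ± 0.10 (SD), with an exact paired permutation p of 0.03125, the smallest that 6 libraries allow. Against the rest, at 4.36 ± 0.28 CPM per kb, the flank median was higher in 1 of 6 libraries, with a log2 difference of −0.16 ± 0.12 and an exact paired permutation p of 0.0625. The order against the core depended on the summary, since counts summed over all covered kb gave 9.74 CPM per kb in the flanks and 39.4 in the core, a log2 difference of −1.98. Without clusters at rRNA genes, the summed core value was 5.35 CPM per kb, and the flanks were higher in 6 of 6 libraries.

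Within the flanks, clusters covered less of the chromosome with distance from the core while the small RNA per covered base grew. The clusters themselves were about as dense throughout, at 206, 233, 234 and 209.5 per Mb over the 4 steps of 500 kb. Clusters covered 71.1% of the first 500 kb outside the core, 65.0% and 49.4% of the next 2 steps, and 36.3% of the step from 1500 to 2000 kb. Over the same 4 steps the density of protein-coding genes rose from 77.2 to 108, 168 and 195 per Mb, and that of pseudogenes fell from 145 to 120, 82.5 and 48.5 per Mb. The level per covered kb, left without the 3 highest flank clusters, went from 4.50 to 7.20, 11.4 and 14.6 CPM. Left without the same 3 clusters, the level per kb of chromosome varied less, at 3.19 CPM in the first step, 4.68 in the second, 5.61 in the third and 5.29 in the outermost. All 3 clusters left out lay in the outermost step, so with them both levels of that step are higher than given here. The 500 kb of core next to the windows, without clusters at rRNA genes, stood above the first step. It was at 7.98 CPM per covered kb and 5.73 CPM per kb of chromosome. Per kb of chromosome it lay between 4.10 and 8.18 CPM over the libraries, against 3.03 to 3.38 in the first step. These are descriptions, since neighbouring steps lie on the same chromosomes and 2 windows are shorter than 2000 kb.

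The 6 libraries ran close together along this profile, which leaves out the 3 highest flank clusters. In the step nearest the core the wild type plants were between 3.09 and 3.26 CPM per kb of chromosome, and the memory plants were at 3.03 and 3.38. In the outermost step the wild type plants were between 5.12 and 5.35, and the memory plants were at 5.23 and 5.63. Memory replicate 2 was the highest library in each of the 4 steps, while memory replicate 1 lay below the wild type range in the innermost step and within it in the other 3. The outer edges of the windows marked no break, with 209 clusters in the 100 kb inside the edges that were followed outward and 212 in the 100 kb outside them.

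**Figure D1:**
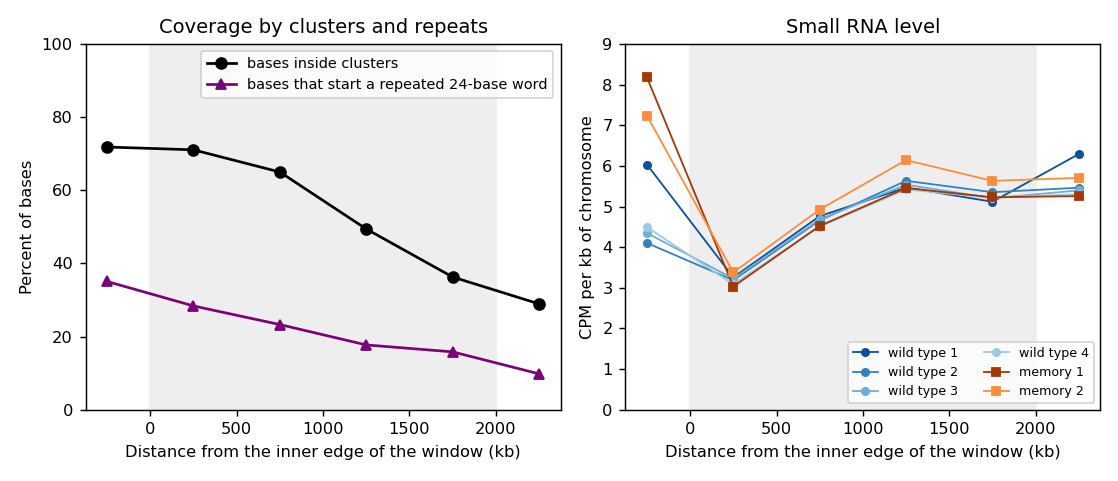
Profile from 500 kb inside the core to 2500 kb outside the inner edge of the windows, in 500 kb steps, with the flank steps shaded grey. The left panel shows the percent of bases covered by clusters (71.1% in the first flank step, 36.3% in the outermost) and the percent of repeated words, and the right panel shows CPM per kb of chromosome in each library without the 3 highest flank clusters, where the 6 lines stay close together inside the flanks. All 3 clusters left out lie in the outermost flank step.

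With the 3 highest flank clusters left out, the 10 windows differed more from each other than the plants did. The level per kb of chromosome then ran from 3.04 CPM on the right of chromosome 5 and 3.71 CPM on the left of chromosome 1 to 6.03 CPM on the right of chromosome 1. The coefficient of variation over the 6 libraries was as low as 1.75% on the left of chromosome 1 and reached 11.7% on the right of chromosome 3. There memory replicate 2 was at 5.99 CPM per kb, and the other 5 libraries were between 4.55 and 4.65. With the 3 highest clusters included, the plants differed more on chromosome 5. The coefficient of variation was then 72.1% on its left, where wild type replicate 1 was highest, and 19.5% on its right. The right of chromosome 2 was the window with most cover by clusters, 70.5%, and with the highest share of clusters on pseudogenes, 54.6%. The right of chromosome 4 had the lowest pseudogene share, 21.2%, and the left of chromosome 5 the least cover, 44.1%.

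**Figure D2:**
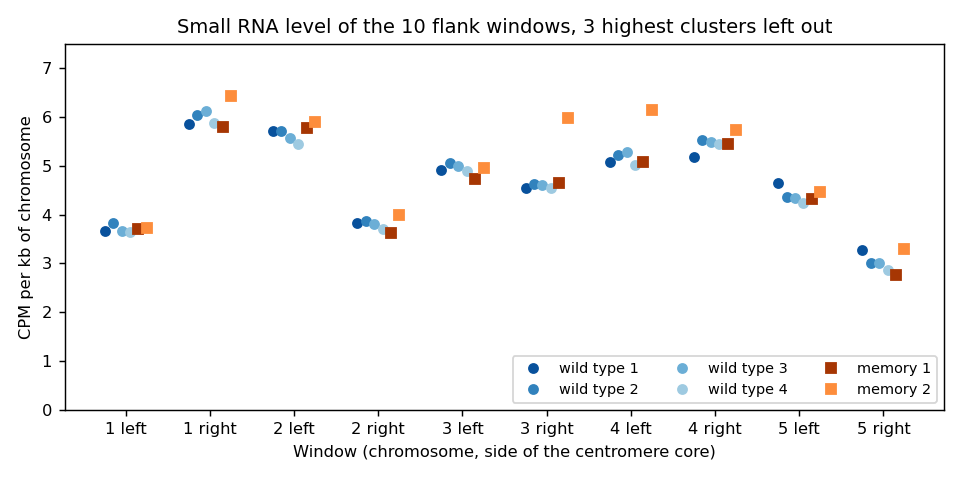
CPM per kb of chromosome in the 10 flank windows for each plant, with the 3 highest flank clusters left out. The coefficient of variation over the 6 libraries is between 1.75% and 7.97% in 9 of 10 windows, and on the right of chromosome 3 memory replicate 2 lies at 5.99, above the other 5 libraries.

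The share of all counts that fell in flank clusters did not differ between groups beyond the spread between plants. It was 9.40%, 11.2%, 10.3% and 9.94% in wild type replicates 1 to 4, and 9.52% and 7.94% in memory replicates 1 and 2. The groups overlapped, with means of 10.2% ± 0.754 (SD, n = 4) and 8.73% ± 1.11 (SD, n = 2) and an exact two-sided permutation p of 0.267. With 2 plants against 4 the smallest p possible is 0.133. The difference of −1.49 percentage points went to −0.70 with memory replicate 2 left out, and to −2.27 with memory replicate 1 left out instead. The share was lower on average in memory in 9 of 10 windows, with overlapping groups in all 10, and the exact permutation p-values adjusted over the windows lay between 0.593 and 0.933.

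Measured within each library against the rest, without clusters at rRNA genes, flank counts gave a log2 ratio of −2.35 ± 0.07 in wild type and −2.50 ± 0.38 in memory, with an exact permutation p of 0.667. Without memory replicate 2 the sign of this difference turned, to 0.12. Against the core the same log2 ratio was 1.66 ± 0.07 in wild type and 1.10 ± 0.23 in memory, with no overlap and an exact permutation p of 0.133, the smallest possible. Core clusters took 8.40% of the counts of memory replicate 1 without clusters at rRNA genes, and between 4.85% and 5.04% in the 5 other libraries. In leaf samples, fewer cells with small RNA from a locus and less small RNA per cell cannot be told apart.

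A few clusters carried much of the flank small RNA. The highest made up 8.44% of the flank CPM, the 3 highest 16.0%, the 10 highest 19.5% and the 100 highest 36.3%, while the median flank cluster had a mean of 6.33 CPM.

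The highest, Cluster_15512 (chr5:14252944-14254892), lay mostly over exons of AT5G36210 and of CYP81D1, a member of the CYP81D family of cytochrome P450 genes. It had 147649, 72808, 75667 and 85408 counts in the wild type plants and 99994 and 74412 in the memory plants. Its CPM was 7334 ± 1983 in wild type and 9992 ± 3081 in memory, with overlapping groups and a log2 fold change of 0.45 ± 0.38 (SE). It alone was 57.5% of the CPM of the window on the right of chromosome 5.

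The second, Cluster_2588 (chr1:17823566-17825909), held MIR161, whose products, printed above, target messenger RNAs of PPR genes. It had 34645, 59274, 39503 and 62927 reads across wild type against 33352 and 23382 in memory, or 3901 ± 1356 and 3215 ± 861 CPM. The groups overlapped, and the log2 fold change was −0.28 ± 0.41 (SE).

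The third, Cluster_14330 (chr5:8804272-8806223), lay inside PLDALPHA3, a phospholipase D gene, and owed its rank to 1 plant. It had 317879 counts in wild type replicate 1, against 1216, 955 and 914 in the other wild type plants and 1287 and 551 in memory. The wild type mean of 5423 CPM had an SD of 10678, and the 5 other libraries lay between 80.6 and 101 CPM. Its log2 fold change was −5.83 ± 3.27 (SE) with all plants and 0.19 without wild type replicate 1.

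The next 7 by level were Cluster_9658, which covered AT3G44570 and AT3G44580 and touched FAR8, Cluster_2446 at AT1G45150, Cluster_11645 on pseudogenes, Cluster_8439 at AT3G28420, Cluster_2617 with no gene in 407 bases, Cluster_9492 at AT3G43420, and Cluster_15372 on the pseudogene AT5G35535. For Cluster_9492 the counts were 2680, 2700, 4150 and 2608 in wild type and 2321 and 7008 in memory, so that memory replicate 2, the shallowest library, had the most reads. For Cluster_8439 they were 5227, 5576, 5016 and 4565 in wild type and 5564 and 3324 in memory, an example of a high cluster with little spread, at 399 ± 34.8 CPM in wild type and 489 ± 77.0 in memory.

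No flank cluster passed the test between groups. Of the 3901, 3632 had enough counts to be tested, and 0 had an adjusted p below 0.05 by edgeR's quasi-likelihood test with Benjamini-Hochberg adjustment over all 15659 clusters tested in the genome, where 1 cluster (0.00639%) passed. The lowest adjusted p of a flank cluster was 0.10. At an unadjusted p below 0.05, 377 flank clusters differed, 117 higher in memory (3.22%) and 260 lower (7.16%), beside 4.92% higher and 5.56% lower over all tested clusters. DESeq2 called 56 flank clusters, 12 higher and 44 lower, or 1.54% of those tested beside 1.56% over all clusters. Of these 56, 55 also had an unadjusted p below 0.05 in edgeR.

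The flank fold changes were centred slightly below 0. Their median on the log2 scale was −0.12, with quartiles at −0.45 and 0.18, and 60.5% were negative, beside a median of −0.03 and 52.3% negative over all tested clusters. The median was −0.17 in the core and 0.03 in the rest. Groups did not overlap with memory higher in 271 flank clusters (7.46%) and with memory lower in 577 (15.9%), beside 10.1% and 12% over all tested clusters. All 10 windows had a negative median, between −0.08 and −0.16, and more clusters lower than higher at an unadjusted p below 0.05.

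The centre of the fold changes depended on the scaling. Scaling by library size alone moved the median over all clusters to −0.23 and the flank median to −0.33, and the higher share of the flank clusters at an unadjusted p below 0.05 went from 31.0% to 8.68%. Measured per plant against the mean of the wild type plants, the median log2 shift of the tested flank clusters was −0.05, 0.02, −0.02 and −0.02 in wild type and −0.09 and −0.18 in memory. The groups did not overlap, and the exact permutation p was 0.133, the smallest possible, but the wild type plants enter their own reference and the memory plants do not. Memory replicate 2 also had the fewest reads, and the part of depth in the shift was not tested. The summed flank level, without the 3 highest clusters, had a higher mean in memory, with 81030 ± 1126 CPM in wild type and 83448 ± 5624 in memory and an exact permutation p of 0.533. That mean rests on memory replicate 2, at 87424 CPM, since memory replicate 1 was at 79471, below the wild type mean. With the 3 highest clusters included the memory mean was the lower one, at 96750 against 97688.

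**Figure D3:**
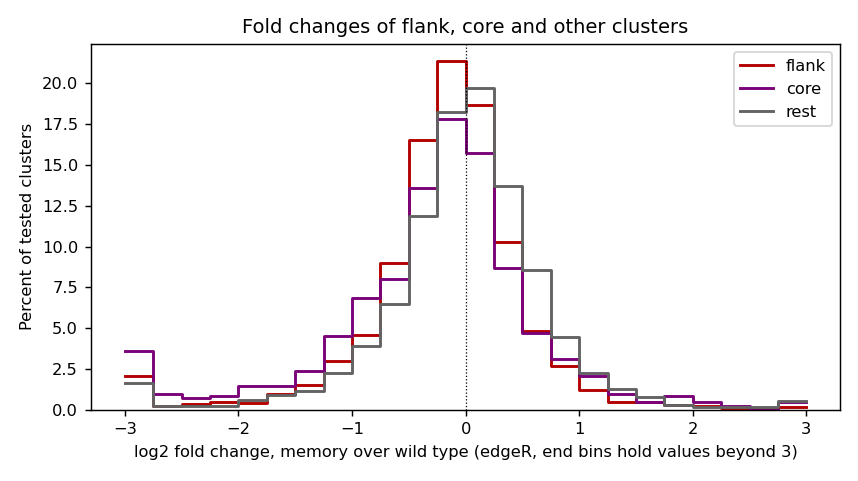
Percent of tested clusters by log2 fold change of memory over wild type (edgeR) for flank, core and rest, in steps along the horizontal axis, with values beyond 3 placed in the end steps. The flank curve peaks just below 0 (median −0.12), and that of the rest just above it (median 0.03).

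By annotation, clusters with no gene had the lowest median fold change. Of 1372 tested, 31 were higher and 129 lower at an unadjusted p below 0.05, with a median log2 fold change of −0.19. Clusters on pseudogenes gave 35 higher and 73 lower of 1231, with a median of −0.09, and those on protein-coding genes gave 45 higher and 51 lower of 933, with a median of −0.06. Those on noncoding RNA genes gave 6 higher and 7 lower of 96, with a median of −0.14. In either direction these were 11.7% of clusters with no gene, 8.77% on pseudogenes, 10.3% on protein-coding genes and 13.5% on noncoding RNA genes. The share over all tested clusters was 10.5%. Over all tested clusters 4.92% were higher and 5.56% lower. The share of flank counts in each class did not differ between groups, with 29.6% ± 2.80 in wild type and 30.8% ± 1.05 in memory for pseudogenes and 27.1% ± 3.32 and 26.8% ± 1.91 for clusters with no gene, and adjusted exact permutation p-values of 0.933. Among the 4 wild type plants the median coefficient of variation of a flank cluster was 21.2%, below the 37.7% of the core and the 25.6% of the rest.

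The highest fitted fold change was that of Cluster_2623, on AT1G48710, which the annotation files as a pseudogene. It had 0 counts in each of the 4 wild type plants and 150 and 80 in the memory plants, or 12.4 ± 0.964 CPM. This was at least 52.5-fold higher in memory against a floor of 3 counts per library, with an unadjusted p of 1.6e-04 and an adjusted p of 0.144 by edgeR's quasi-likelihood test with Benjamini-Hochberg adjustment. As its sequence above shows, nearly every base was in a repeated word, and 90.4% of its words of 24 bases occurred more than once. The clusters sharing the most words with it were Cluster_9038 in the core, on AT3G32415, with 44 counts in memory replicate 1 and 0 in the other 5 libraries, and Cluster_10461 in the rest, on AT3G59720, with 0 in every library. Summed over the 3 clusters the wild type plants stayed at 0, and the memory plants had 194 and 80 counts.

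The 4 other rises were of different kinds. Cluster_11943 (chr4:6221281-6222303), over exons of MES12, which encodes a predicted carboxylesterase, had 2, 15, 1 and 6 reads across wild type against 156 and 64 in memory, giving a log2 fold change of 4.59 ± 0.81 (SE). Cluster_2592 (chr1:17841625-17841987), with no gene, had 0, 52, 9 and 20 against 405 and 34, a log2 fold change of 3.56 ± 1.30. Memory replicate 1 carried most of that rise. Cluster_11197 (chr4:2965893-2969524), with no gene, had 7, 18, 10 and 15 against 103 and 37, a log2 fold change of 2.83 ± 0.44. Cluster_2512 (chr1:17390911-17391481), with no gene, had 36, 13, 16 and 13 against 98 and 36, a log2 fold change of 2.19 ± 0.42. Its groups do not overlap in CPM, although wild type replicate 1 and memory replicate 2 had equal counts. None passed the adjusted threshold, with adjusted p-values between 0.228 and 0.456 by edgeR's quasi-likelihood test with Benjamini-Hochberg adjustment.

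Cluster_2512 had 2 close neighbours that also stood apart, chosen here after their values were seen. Cluster_2510 (chr1:17383534-17384744), at AT1G47395, had 607, 374, 347 and 299 reads across wild type against 1029 and 772 in memory, giving a log2 fold change of 1.73 ± 0.25 (SE). Between them, Cluster_2511 (chr1:17386363-17387300), which overlapped AT1G47400 and MIR5664, went the other way, with 81, 139, 131 and 116 reads across wild type against 13 and 13 in memory, giving a log2 fold change of −2.59 ± 0.49. In all 3 the CPM of the groups did not overlap. Next to this stretch, Cluster_2509 lay at 90.0 ± 8.22 CPM in wild type and 107 ± 18.8 in memory, with overlapping groups.

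The 5 lowest fitted fold changes that met the rule for naming belonged to clusters with no read in either memory plant, where the fitted size is no bound, so that their rank against clusters with a few reads in memory is not fixed. In Cluster_8741 (chr3:11864132-11864502), 2539 bases beyond AT3G30214 and 1211 before AT3G30216, the wild type plants had 123, 68, 61 and 85 counts. It was at least 17.9-fold lower in memory against a floor of 3 counts per library, with an unadjusted p of 4.8e-05 and an adjusted p of 0.10 by edgeR's quasi-likelihood test with Benjamini-Hochberg adjustment. In Cluster_4644 (chr2:2049661-2050770), on pseudogenes, they had 158, 115, 108 and 10, at least 20.2-fold lower in memory. The spread was wider there, and the bound does not hold for wild type replicate 4, which was at 0.882 CPM, close to the memory plants. Cluster_5276 on AT2G12505 had 23, 64, 4 and 38 counts in wild type, Cluster_15317 on AT5G35250 had 43, 27, 42 and 15, and Cluster_1575 on AT1G35050 had 26, 26, 65 and 1. The bounds of these last 3 were 6.81-fold, 6.78-fold and 6.47-fold lower in memory. All 5 bounds are taken from the wild type mean. They do not hold for every wild type plant. Wild type replicate 3 was at 0.349 CPM in Cluster_5276, and wild type replicate 4 was at 0.088 CPM in Cluster_1575. Both values lie below the floor of memory replicate 2, 0.491 CPM, so these plants cannot be told apart from it there. None of the 5 falls passed the adjusted threshold.

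**Figure D4:**
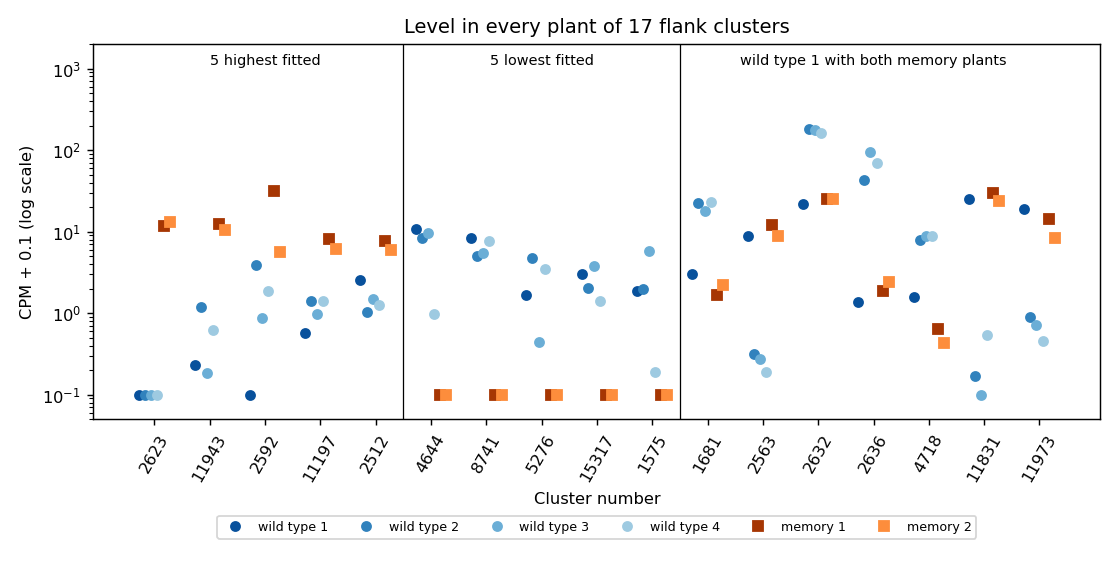
CPM plus 0.1 on a log axis in every plant for 17 flank clusters, blue circles for wild type and red and orange squares for memory. The 5 highest and 5 lowest fitted fold changes are at the left and centre, where all 5 of the lowest have both memory plants at 0 CPM, and at the right are 7 clusters in which wild type replicate 1 sits with both memory plants and away from the other wild type plants.

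Among clusters that kept reads in every plant, Cluster_5453 (chr2:5963252-5966482) had the lowest p of the flanks and was singled out after its values were seen. It lay on the pseudogene AT2G14130 and had 434, 492, 342 and 280 reads across wild type against 79 and 44 in memory. Its CPM was 29.8 ± 4.44 in wild type and 6.68 ± 0.724 in memory, with no overlap. Memory was lower by a log2 fold change of −2.16 ± 0.21 (SE), with an unadjusted p of 3.5e-05 and an adjusted p of 0.10 by edgeR's quasi-likelihood test with Benjamini-Hochberg adjustment.

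Complete loss or gain was rare. Counting as lost a cluster with at least 10 counts in every wild type plant and at most 3 in both memory plants, 11 of the 3901 flank clusters were lost (0.282%), beside 33 of all 17131 (0.193%). With the groups exchanged, Cluster_2623 was the 1 flank cluster gained, beside 8 in all. Cluster_15250, at AT5G34905, was lost, with 123, 133, 138 and 136 reads across wild type against 0 and 2 in memory. Cluster_15406, on pseudogenes, had 78, 56, 43 and 58 reads across wild type against 1 and 0 in memory.

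Some lost clusters shared sequence with other clusters. A partner is any other cluster of the genome that holds at least 20% of the cluster's words of 24 bases. Cluster_15245 had 11 partners, Cluster_4644 had 8, Cluster_15406 had 5 and Cluster_15250 had 4. Cluster_8741, Cluster_1712, Cluster_11747 and Cluster_15182 had none. Reads that match several such places are placed by the aligner, and the part of this in the losses was not tested.

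At 7 loci picked for known silencing or because the study singled them out, 14 flank clusters lay on the locus or within 1 kb of it. Of the 12 tested, 1 was higher and 2 were lower in memory at an unadjusted p below 0.05, and none passed the adjusted threshold. Over all tested clusters 4.92% were higher and 5.56% lower, and 12 clusters are too few to compare with those shares. The one higher was Cluster_2623. Of the other clusters on AT1G48710, Cluster_2622 had 114 counts in wild type replicate 2 only, Cluster_2625 had 84 in wild type replicate 4 and 124 in memory replicate 1 only, and Cluster_2624 had none. Cluster_2626, within 1 kb of the locus, was read in every plant, with 707, 662, 414 and 457 counts against 560 and 204.

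The first of the lower clusters was Cluster_5242, on AT2G12210 and its neighbours, with 176, 103, 75 and 82 reads across wild type against 46 and 32 in memory, giving a log2 fold change of −0.91 ± 0.35 (SE). The other was Cluster_11727, close to MEKK1, a MAP kinase kinase kinase gene, with 47, 26, 17 and 8 reads across wild type against 7 and 2 in memory, giving a log2 fold change of −1.97 ± 0.72. The CPM of the groups did not overlap in either. The second cluster near MEKK1, Cluster_11726, had 491, 517, 387 and 357 reads across wild type against 481 and 242 in memory, or 33.9 ± 2.46 and 38.6 ± 1.41 CPM, higher in memory without overlap. Cluster_5243, also on AT2G12210, had 57, 58, 38 and 48 against 39 and 16, lower in memory without overlap in CPM.

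At the remaining loci no cluster had an unadjusted p below 0.05. Cluster_8851 at QQS, a regulator of starch content, had 146, 121, 121 and 91 reads across wild type against 108 and 57 in memory, or 9.29 ± 1.12 and 8.88 ± 0.625 CPM. Cluster_15584, beside the auxin response factor gene ARF8, had 343, 304, 246 and 228 against 318 and 150, or 21.7 ± 1.26 and 24.7 ± 0.223 CPM, higher in memory without overlap. Cluster_14556 at AT5G27845 had 424, 500, 272 and 323 against 411 and 147. Cluster_11756 at AT4G08680 had 373, 402, 225 and 379 against 345 and 114.

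The miRNA genes of the flanks formed 33 clusters over 34 genes, all tested. None was higher and 3 were lower in memory at an unadjusted p below 0.05, beside 4.92% higher and 5.56% lower over all tested clusters. With 33 clusters, 3 are too few to set apart from that share. None passed the adjusted threshold, and the median log2 fold change of the 33 was −0.12, that of all flank clusters. The lower ones were Cluster_2511 at MIR5664, described above, Cluster_2357 at MIR5024 and Cluster_12059 at MIR5020a and MIR5020b. Cluster_2357, inside AAP5, an amino acid permease gene, had 1053, 732, 825 and 728 reads across wild type against 513 and 316 in memory, giving a log2 fold change of −0.50 ± 0.19 (SE). Cluster_12059 had 374, 666, 420 and 441 against 260 and 142, a log2 fold change of −0.77 ± 0.27. In a cluster of 7402 bases such as this one, most positions lie outside the mature miRNAs.

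Clusters of miRNAs with known developmental targets overlapped between groups. MIR164c, whose products target NAC domain genes, gave Cluster_14550 with 1363, 1071, 2048 and 1677 reads across wild type against 396 and 887 in memory, or 124 ± 47.4 and 88.0 ± 80.7 CPM, with overlapping groups. MIR396b, which targets GRF genes, gave Cluster_15345 with 1389, 1145, 816 and 1217 against 955 and 375, or 88.7 ± 15.5 and 68.0 ± 9.40 CPM. MIR397a, which targets laccase genes, gave Cluster_11133 at 17.7 ± 4.73 and 17.9 ± 0.158 CPM.

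MIR773a and MIR773b lie close together on chromosome 1 and differ at few bases of the products printed above. MIR773a, which targets the methyltransferase gene MET2, gave Cluster_1652 with 3246, 3263, 2422 and 3028 reads across wild type against 2992 and 1609 in memory, at 233 ± 24.8 and 248 ± 20.8 CPM. It was the flank cluster with the highest level per kb on the left of chromosome 1. MIR773b gave Cluster_1645 with 46 counts in wild type replicate 2, 71 in memory replicate 1 and 0 in the other 4 libraries. Reads that match both genes could be split between them by the counting.

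In the other windows the highest level per kb was found in short clusters, of which 4 were steady and 2 were not. They were Cluster_4694 and Cluster_5440 on the left and right of chromosome 2, Cluster_8588 on the left of chromosome 3, at the edge of AT3G29260, Cluster_9410 on its right, and Cluster_11105 and Cluster_12054 on the left and right of chromosome 4. Cluster_5440 lay at 210 ± 7.70 CPM in wild type and 195 ± 1.63 in memory, and Cluster_12054 at 282 ± 22.2 and 291 ± 7.08. Cluster_11105 was between 126 and 156 CPM in 5 libraries and at 232 CPM in memory replicate 2. Cluster_9410, the 27 bases printed above from the coding sequence of PRK3, had 73, 104, 113 and 98 reads across wild type against 112 and 156 in memory. In CPM it was between 4.92 and 9.85 in 5 libraries and at 25.5 in memory replicate 2.

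Some flank clusters had counts in some plants and almost none in others, across both groups. On-off clusters, with at most 3 counts in 1 library and at least 50 in another, numbered 216 (5.54%), beside 6.94% of the core and 6.64% of the rest. Of these, 10 were low in both memory plants only and 1 was low in all wild type plants only, while 205 had other patterns. Memory replicate 2, the shallowest library, was at or below 3 counts in 143 of them, and the other libraries in 58 to 85. The share was 2.53% of the 1106 clusters with under 5% of repeated words, and it rose with repeat content from 1.20% of the 1171 clusters with 5% to 25% of repeated words to 11.1% of the 451 with 50% to 75% and 24.2% of the 392 with 75% or more. Among the 184 clusters of that last bin that reached 50 counts in any library, 51.6% were on-off. The median coefficient of variation among wild type plants went the same way, from 15.9% to 38.8% and 66.9% over the same 3 bins.

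Most on-off clusters shared sequence with other clusters. A partner was found for 159 of the 216 (73.6%), with a median of 8 partners each and a median repeat content of 77.0%. The partners were spread over the genome, with at least 1 in the core for 79 clusters, 1 elsewhere in the flanks for 146 and 1 in the rest for 124. Summed with its partners, the count was above 3 in every library for 154 of the 159, though a sum over several clusters seldom stays low. Reads that match several places are placed by the aligner, so these clusters need not be loci that switch between plants. The part of this in the on-off counts was not tested.

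**Figure D5:**
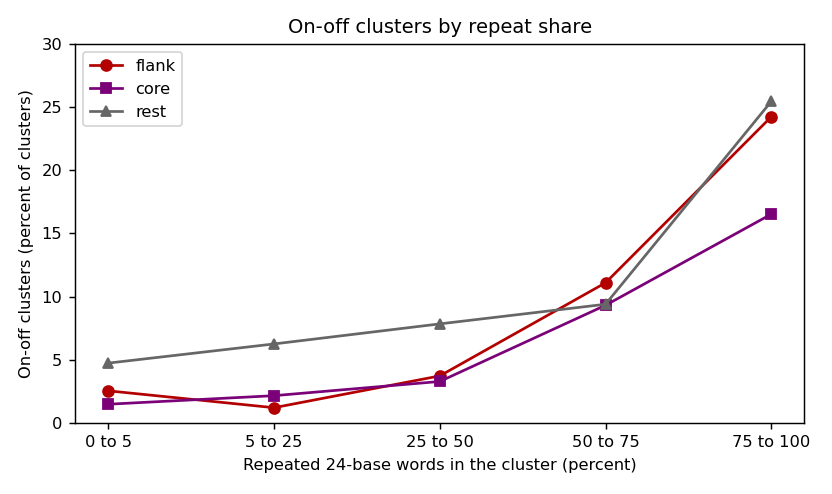
Percent of clusters that were on-off, by the percent of their words of 24 bases that occur more than once in the genome, for flank, core and rest. The flank line rises from 1.20% in the second bin to 24.2% in the highest, where the core is at 16.5% and the rest at 25.5%.

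The other 57 on-off clusters had no partner and a median repeat content of 5.08%. Of these, 20 were low only in memory replicate 2, the shallowest library, and 19 reached 50 counts only in wild type replicate 1. By group, 4 were low in both memory plants only, and these are the lost clusters without a partner named above. Cluster_11943, a rise described above, is also among the 57. Other differences were large and cut across the groups. Cluster_14538 had 4048, 1, 1844 and 2 reads across wild type against 1616 and 775 in memory. Cluster_2581 had 1248, 2, 186 and 4 against 206 and 524. Cluster_1729 had 2, 593, 503 and 483 against 485 and 178, so that wild type replicate 1 alone was low. Cluster_8458 had 5808, 1, 4 and 4 against 1 and 0, so that wild type replicate 1 alone was high. These examples were chosen after their values were seen.

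Some clusters placed 1 wild type plant with both memory plants. A cluster was counted where that plant and both memory plants, each on the same side, were at least 4-fold from every other wild type plant, with at least 5 CPM on the higher side. With wild type replicate 1 there were 7 such flank clusters, with replicates 2 and 3 none, and with replicate 4 there was 1, Cluster_4644. Both memory plants stood alone in this way in 4, or 0.103% of the flank clusters beside 0.128% of all clusters. The share with wild type replicate 1 was 0.179% of the flank clusters and 0.134% of all clusters. The sources used here do not say whether the wild type plants share a parent. The 3 in which wild type replicate 1 was high with memory were Cluster_11831, with 372, 1, 0 and 5 reads across wild type against 375 and 145 in memory, Cluster_11973 at AT4G10190 and AT4G10200, with 279, 11, 7 and 4 against 183 and 51, and Cluster_2563, with 131, 3, 2 and 1 against 154 and 53.

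The 4 in which it was low with memory included Cluster_2636, with 19, 587, 1084 and 776 reads across wild type against 23 and 14 in memory, and Cluster_2632 at AT1G48790, with 322, 2513, 2009 and 1831 against 322 and 153. Cluster_1681 had 43, 307, 203 and 258 against 20 and 13, and Cluster_4718 at AT2G06025 had 22, 109, 100 and 98 against 7 and 2. All 7 had a repeat content between 0% and 20.4%. Without wild type replicate 1, edgeR's quasi-likelihood test called 3 of 3577 tested flank clusters, beside 9 of 15319 over all tested clusters. The 3 were Cluster_1681, Cluster_2563 and Cluster_2632. The rule above had picked them for a gap between memory and the other wild type plants, so these calls are no separate evidence. Cluster_9598, at AT3G44200 and chosen after its values were seen, had 17, 14, 17 and 15 reads across wild type against 6 and 190 in memory. With memory replicate 1 left out, its log2 fold change was 4.65.

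Across flank clusters the plants ranked alike within and between groups. Spearman's correlation of CPM was between 0.906 and 0.944 for pairs of wild type plants, 0.915 for the memory pair and between 0.889 and 0.934 for pairs across groups. These describe the 3901 clusters, which share libraries and are not independent replicates.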

How the data were processed

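Per the labels and the study's methods, small RNA of 4 wild type and 2 memory plants was sequenced as single-end reads, and the authors aligned each library to TAIR10 with ShortStack and used SAMtools. The deposited counts are whole reads per cluster, not normalized. The study describes its screen as one of small RNAs of 24 bases, but whether the deposited counts hold reads of that length only, and how clusters were defined and counted, is not given in the sources used here.

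Members were clusters starting in the 10 windows. The members and lists were chosen with earlier results of these data known. All clusters were fitted together with edgeR 4.0.16 (R 4.3.3; TMM, filterByExpr, quasi-likelihood test with group as the only term) and p-values adjusted by Benjamini-Hochberg, with 0.05 as the threshold. The study's methods state no test for these counts, but the paper reports small RNA clusters that differ between memory and wild type, with examples at MEKK1 and ARF8. Those calls were not compared with the ones made here. The SE beside an edgeR log2 fold change is its absolute value divided by the square root of the test's F statistic. DESeq2 1.42.0 was an alternative. Values of 1 per library were compared by exact permutation tests (scipy 1.17.1). P-values measure only the spread between these plants. The fit was tested on simulated data.

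Clusters named in the text were the 10 highest in mean CPM, the 5 highest and 5 lowest fitted fold changes among clusters with a mean of at least 1 CPM, an unadjusted p below 0.05 and groups that do not overlap, those at listed loci or miRNA genes, and the highest per kb in each window. Others are said to have been chosen after their values were seen, as were the on-off, lost, shared and partner counts. RefSeq's TAIR10.1 annotation gave genes and miRNAs. Same-numbered plants did not deviate together (correlation −0.06 over 15659 clusters), so replicate numbers were not used to pair plants.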

Additional observations from a re-analysis of the deposited data

Results flagged for a closer look

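Of 39 sets of 4 wild type values tested for a plant far from the others, 4 were past the 95% limit. In each of the 4 the plant was wild type replicate 1. The sets share clusters and are not independent, so a chance rate of 1 in 20 is no measure for them. Cluster_14330 was tested only because its reads in this plant put it among the 3 highest, so its result was fixed by that choice. The window on the left of chromosome 5 took 2.51% of its counts, against 0.919% to 1.08% in the other wild type plants. Clusters on protein-coding genes took 47.8% of its flank counts, against 31.2% to 32.8%. Both values hold Cluster_14330, which was at 21439 CPM in this plant and at 80.6 to 87.8 CPM in the others. Cluster_5242, on AT2G12210, was at 11.9 CPM, against 6.53 to 7.43 CPM.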

How the results depend on the processing

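The number of flank clusters called was 0 under other size factors and filters, 1 with library size alone (Cluster_8741), 56 with DESeq2, and 0 to 3 when each plant was left out in turn. The count at an unadjusted p below 0.05 was 242 with library size alone and between 234 and 650 with a plant left out, and leaving out a memory plant makes the other one the whole group, assumed to vary like wild type. With only replicates 1 and 2 of each group it was 105 with a replicate block and 139 with no replicate block, with 0 calls in both, and the numbers did not pair the plants. The median log2 fold change was −0.33 with library size alone and between −0.10 and −0.21 with a plant left out. The difference in the log2 ratio of flank to rest counts lay between −0.42 and 0.12, turning its sign without memory replicate 2. The log2 level per kb against the core was −1.98 from summed counts, and against the rest it was −2.16 from summed counts, −1.82 from summed counts without clusters at rRNA genes and −0.22 over tested clusters only, each with an exact paired permutation p of 0.03125. Of 200 values for 20 named clusters, 186 kept their direction and side of the threshold and 13 gained a call, 12 of these under DESeq2. For Cluster_14330 the range with a plant left out was −6.24 to 0.19. Added after seeing the data, a stricter share of 50% of words left 87 on-off clusters with a partner, and an 8-fold limit left 5 clusters that place 1 wild type plant with memory. Depth limits low clusters, since memory replicate 2 has a floor of 0.491 CPM. For these changes the cause was not tested.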
